A study of Bos taurus with 6 samples.

Results

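A group of 6 miRNAs with known roles in hormone signalling of the ovarian follicle were followed in extracellular vesicles (EVs) from bovine granulosa cells. They were bta-miR-132, bta-miR-212, bta-miR-202, bta-miR-224, bta-miR-383 and bta-miR-31, chosen by name for their links to gonadotropin, TGF-beta or steroid signalling, by a rule that used no value but was made with earlier results of these data known. All 6 were among the 512 miRNAs listed. Granulosa cells (Bos taurus) from small antral follicles of slaughterhouse ovaries were cultured in DMEM/F-12 with exosome-depleted fetal bovine serum. EVs were precipitated from the spent medium with ExoQuick-TC, and their small RNA was sequenced in 3 libraries at 37 °C (control-EVs) and 3 libraries after heat stress at 42 °C (HS-EVs), each for 24 h. The labels number the libraries as replicates, and the paper calls them biological, without saying how many ovaries or animals stood behind each. Medium that had held no cells was not analysed here.

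Granulosa cells surround the oocyte, respond to follicle-stimulating hormone (FSH) and luteinizing hormone (LH), and convert androgens to oestradiol through aromatase. The genes of miR-132 and miR-212 lie side by side and are transcribed together after LH or cAMP signalling. Expression of miR-202 is largely restricted to the gonads. TGF-beta induces miR-224, which targets SMAD4 and raises oestradiol release. Steroidogenic factor 1 drives transcription of miR-383, which targets RBMS1 and promotes oestradiol release, and miR-31 has been linked to the FSH receptor in bovine granulosa cells. These links come from cells, whereas the measurements below are of vesicles shed into medium.

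The libraries held 274434 to 2360980 miRNA reads, and 59.9 to 98.6% of them were bta-miR-1246. HS-EVs replicate 1 stood apart with 98.6%, which left 34141 reads for all other miRNAs (hereafter the non-miR-1246 reads) against 73569 to 235634 in the other libraries. The deposited values were read counts normalized by TMM (trimmed mean of M-values, a scaling between libraries), and 1 read was worth 0.697 (control-EVs replicate 2) to 4.11 (HS-EVs replicate 1) of these normalized counts. Results are therefore also given as a share of the non-miR-1246 reads, and without HS-EVs replicate 1 where that changed them. These reads were recovered from the deposited values, and their totals were above the miRNA-mapped reads listed in the study's supplement in every library, for a reason that was not tested. Intervals on reads and limits from a count of 0 cover counting error only, and capture differs between miRNA sequences, so that an order of levels is an order of captured molecules. In a pool of vesicles, fewer vesicles that carry a miRNA and less of it per vesicle cannot be told apart.

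The detected miRNAs were bta-miR-202, bta-miR-31, bta-miR-224 and bta-miR-132, in both groups, at 10 or more normalized counts in at least 2 of the 3 libraries. Neither bta-miR-383 nor bta-miR-212 was detected in either group. Over all 512 miRNAs, 194 were detected in control-EVs and 188 in HS-EVs. The abundant pair ranked among the leading miRNAs, with bta-miR-202 in place 19 and bta-miR-31 in place 23 by mean normalized count over the 6 libraries. Much lower stood bta-miR-224 in place 104 and bta-miR-132 in place 129. None of the 6 differed between HS-EVs and control-EVs by any test used.

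**Figure D1:**
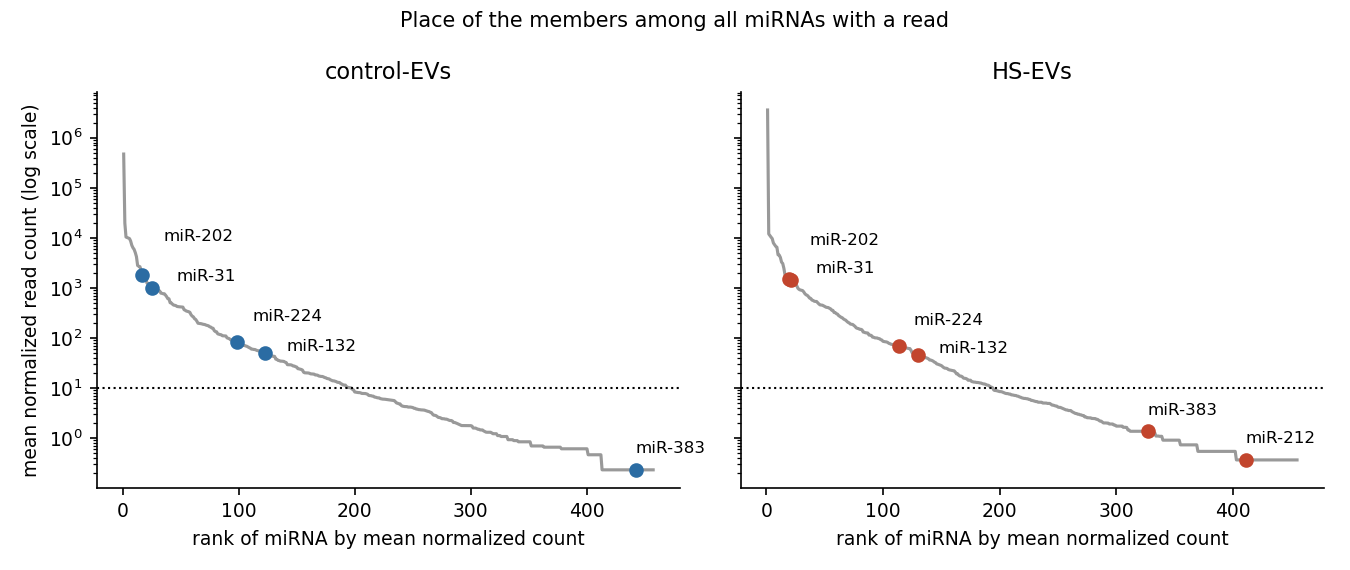
Mean normalized read count (log scale) of every miRNA with at least 1 read in control-EVs (left) and HS-EVs (right), ranked from high to low (grey line), with the 6 hormone-linked miRNAs as points. The dotted line marks 10 normalized counts. The points of miR-202 and miR-31 lie near the top in both panels, miR-224 and miR-132 above the dotted line, and miR-383 and miR-212 below it, where miR-212 had no read in control-EVs and is not drawn there.

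The order of the levels was examined within each library, where no scaling enters. Per read of bta-miR-224 there were 7.64 to 26.6 reads of bta-miR-31, with a geometric mean of 15.3 over the 6 libraries, and bta-miR-31 was the higher in 6 of 6. The ratio of bta-miR-202 to bta-miR-31 had a geometric mean of 1.40, a range of 0.533 to 2.49, and was above 1 in 4 of 6 libraries. The ratio of bta-miR-224 to bta-miR-132 had a geometric mean of 1.63, a range of 0.921 to 2.53, and was above 1 in 5 of 6 libraries. Both of these ranges include 1, whereas that of bta-miR-31 to bta-miR-224 does not. The neighbouring pairs were taken from the observed order of the means, so that no test is given. These ratios were chosen after the values were seen.

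The gonad miRNA bta-miR-202 had the highest mean of the 6 over all libraries, although bta-miR-31 was higher in HS-EVs replicates 2 and 3. Its normalized counts were 1672, 1965 and 1879 in control-EVs and 2087, 1473 and 1015 in HS-EVs (replicates 1 to 3), from 508 to 2818 reads. The control-EVs lay close together, whereas the HS-EVs held both the highest and the lowest of the 6 values, so that the groups overlapped. The control-EVs mean was 1839 ± 151 and the HS-EVs mean 1525 ± 538 (SD, n = 3 each). The log2 fold change, HS-EVs minus control-EVs on the log2(normalized count + 1) scale, was -0.33 (SE 0.46, 95% interval -1.35 to 0.69, limma adjusted p = 0.888 over all 512 miRNAs). An exact two-sided permutation test of the mean gave p = 0.5, where 3 against 3 libraries cannot go below 0.1. As a share of non-miR-1246 reads, it was 1.23% ± 0.0580 in control-EVs and 1.10% ± 0.385 in HS-EVs (exact permutation p = 0.7). The log2 fold change was -0.58 without HS-EVs replicate 1, the library with the highest value, and -0.07 without HS-EVs replicate 3, that with the lowest. Counting error alone was smaller than the spread between libraries, which was 2.89 times the counting SD in control-EVs and 8.56 times in HS-EVs.

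The FSH receptor-linked bta-miR-31 ran the other way in its means without passing a test. Its normalized counts were 1375, 789 and 862 in control-EVs and 879, 1604 and 1905 in HS-EVs, from 214 to 1458 reads. HS-EVs replicates 2 and 3 lay above all control-EVs, while HS-EVs replicate 1 lay among them. The mean was 1008 ± 319 in control-EVs and 1463 ± 527 in HS-EVs (SD, n = 3 each), which is a difference of 0.51 on the log2 scale (SE 0.49, 95% interval -0.59 to 1.61, limma adjusted p = 0.873; exact permutation p = 0.2). Its share of non-miR-1246 reads was 0.683% ± 0.261 in control-EVs and 1.05% ± 0.378 in HS-EVs (exact permutation p = 0.2). The log2 fold change was 0.84 without HS-EVs replicate 1 and 0.28 without HS-EVs replicate 3, and passed the threshold in neither case. The interval includes a log2 fold change of 1 as well as 0, so that neither is excluded by these 6 libraries.

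**Figure D2:**
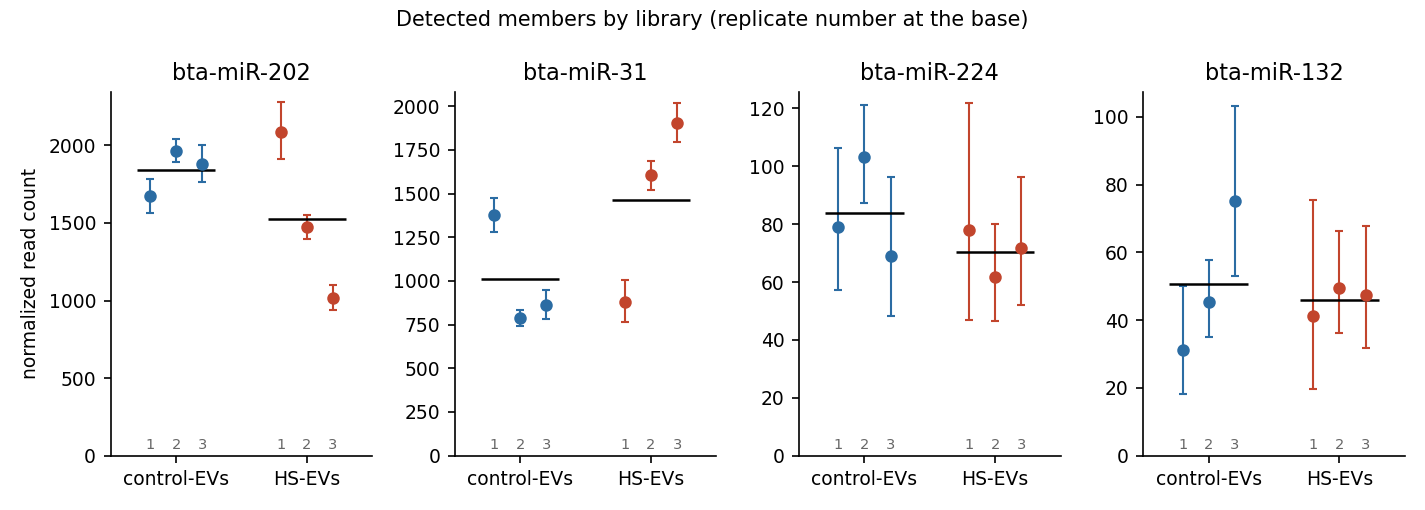
Normalized read counts of the 4 detected miRNAs in each library, with control-EVs in blue and HS-EVs in red, the replicate number at the base, exact 95% Poisson intervals of the recovered reads as bars (counting error only) and group means as black lines. The groups overlap in each panel. Intervals are narrow against the spread for miR-202 and miR-31 and wide for miR-224 and miR-132, which rest on 10 to 148 reads per library.

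The 2 abundant miRNAs were high in different libraries. There were 1.22, 2.49 and 2.18 reads of bta-miR-202 per read of bta-miR-31 in control-EVs and 2.37, 0.918 and 0.533 in HS-EVs. The exact 95% intervals of the highest and lowest ratios were 2.32 to 2.67 (control-EVs replicate 2) and 0.483 to 0.588 (HS-EVs replicate 3). More bta-miR-31 than bta-miR-202 was read in HS-EVs replicates 2 and 3. The ratio of 2.37 in HS-EVs replicate 1 lay within the range of control-EVs, 1.22 to 2.49. Between groups, the log2 ratio differed by -0.84 (exact permutation p = 0.3). Without HS-EVs replicate 1, the HS-EVs library with the highest ratio, it differed by -1.42 (exact permutation p = 0.2, the smallest that 3 against 2 libraries allow being 0.1). The ratio was chosen after the values were seen, so that these p-values are descriptions only. These 2 miRNAs made up 94.9 to 96.5% of the reads of the 6. The sum of the 6 was 2885 to 3157 normalized counts in control-EVs and 3040 to 3189 in HS-EVs, or 1.77 to 2.24% and 2.15 to 2.35% of the non-miR-1246 reads. The highest library was 2.06 times the lowest for bta-miR-202 alone and 2.42 times for bta-miR-31 alone.

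**Figure D3:**
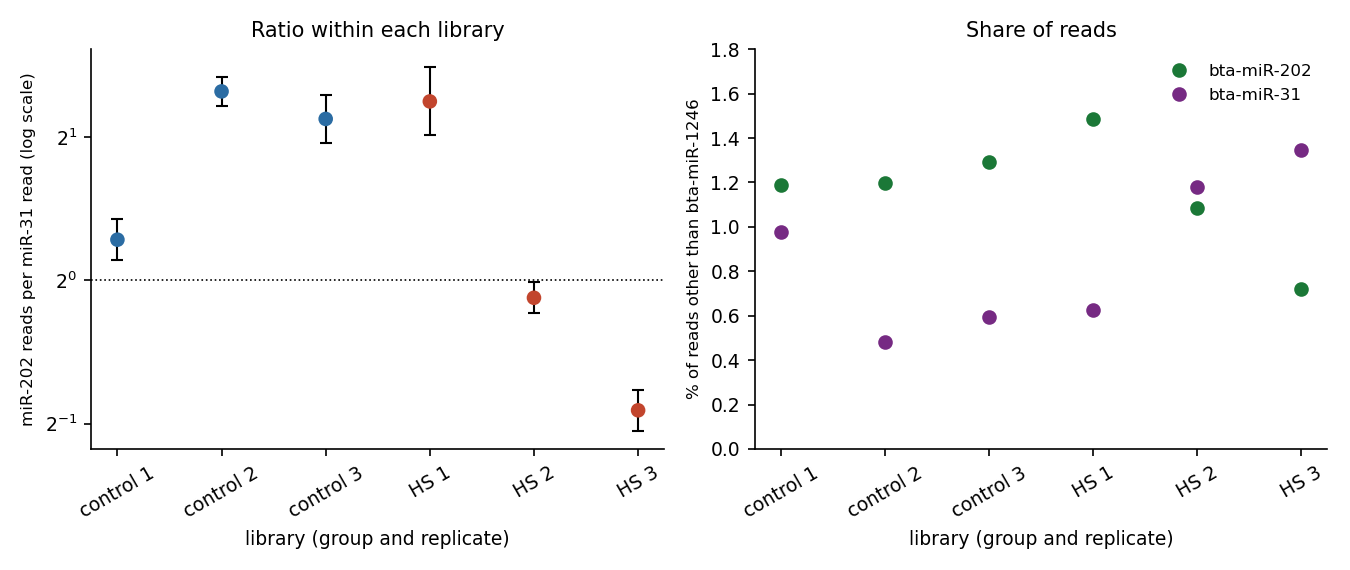
Left, reads of bta-miR-202 per read of bta-miR-31 in each library (log scale, control-EVs blue, HS-EVs red, bars exact 95% intervals from counting). Right, share of both miRNAs among the reads that were not bta-miR-1246, in percent. The ratio lies between 1.22 and 2.49 in control-EVs and HS-EVs replicate 1, and below 1 in HS-EVs replicates 2 and 3.

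The 8 markers fixed for material other than granulosa cells took 9.85 to 16.0% of the non-miR-1246 reads in control-EVs and 5.86 to 10.5% in HS-EVs (exact permutation p = 0.2). The groups overlapped through HS-EVs replicate 1 alone, and without it the HS-EVs shares were 7.68 and 5.86%, both below every control-EVs library. Most of it was the liver and serum miRNA bta-miR-122. Its share was 8.70, 15.5 and 14.7% in control-EVs and 9.72, 7.25 and 5.32% in HS-EVs. The lowest shares of bta-miR-122 were in HS-EVs replicates 2 and 3, where bta-miR-31 was highest. Of the 8 markers, 2 had higher and 6 lower means of log2 values in HS-EVs, with a median log2 fold change of -0.21, and none was called. The blood cell miRNA bta-miR-150 was the 1 marker of 8 whose groups did not overlap, at 24.4 ± 5.73 normalized counts in control-EVs and 48.0 ± 17.6 in HS-EVs (SD, n = 3 each; log2 fold change 0.91, limma adjusted p = 0.873), beside 6.45% of all 512 miRNAs. The least abundant marker was the red cell miRNA bta-miR-144, with 2 to 9 reads per library. The part of serum material in the values of bta-miR-31 was not tested.

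The TGF-beta-induced bta-miR-224 had 78.9, 103 and 69.2 normalized counts in control-EVs and 78.1, 61.6 and 71.7 in HS-EVs, from 19 to 148 reads. Control-EVs replicate 2 was highest, with the remaining 5 libraries from 61.6 to 78.9. Control-EVs averaged 83.8 ± 17.5 and HS-EVs 70.5 ± 8.31 (SD, n = 3 each), with a log2 fold change of -0.23 (SE 0.43, 95% interval -1.20 to 0.73, limma adjusted p = 0.907; exact permutation p = 0.4). Leaving out control-EVs replicate 2, its highest library, gave -0.07, and leaving out control-EVs replicate 3 gave -0.36. The spread between libraries was 1.61 times the counting SD in control-EVs and 0.640 times in HS-EVs, so that counting error was of the size of the spread. Its highest library was 1.68 times its lowest, the smallest such range of the 4 detected miRNAs, where the median of 199 detected miRNAs with a read in every library was 2.69.

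In the RefSeq annotation (ARS-UCD2.0) the nearest miRNA gene to MIR224 was MIR452, and both lie within GABRE, which encodes a GABA receptor subunit. The normalized counts of bta-miR-452 were 162, 116 and 53.4 in control-EVs and 74.0, 117 and 199 in HS-EVs, with a log2 fold change of 0.26 (SE 0.57, limma adjusted p = 0.952). Reads of bta-miR-224 per read of bta-miR-452 ranged from 0.361 to 1.30 over the 6 libraries, and the log2 ratio differed between groups by -0.50 (exact permutation p = 0.5), or by -0.92 without HS-EVs replicate 1 (exact permutation p = 0.4). Levels of the 2 miRNAs of this gene thus lay within 3-fold of each other in every library without a fixed ratio.

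The LH-induced bta-miR-132 had 31.2, 45.3 and 75.1 normalized counts in control-EVs and 41.1, 49.5 and 47.3 in HS-EVs, from 10 to 65 reads. Both the highest and the lowest value came from control-EVs, and the 3 HS-EVs lay between them. Control-EVs averaged 50.5 ± 22.4 and HS-EVs 46.0 ± 4.36 (SD, n = 3 each), with a log2 fold change of -0.05 (SE 0.48, 95% interval -1.11 to 1.01, limma adjusted p = 0.974; exact permutation p = 0.9). The spread between libraries was 2.52 times the counting SD in control-EVs and 0.435 times in HS-EVs. The sign of this value changed with the scaling and with the library left out, from -0.34 without control-EVs replicate 1 to 0.28 without control-EVs replicate 3, so that no direction is given.

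Its partner bta-miR-212 had 1 read, in HS-EVs replicate 2, although MIR132 and MIR212 are each other's nearest miRNA genes with 0 genes between them in the RefSeq annotation. Over the 6 libraries, bta-miR-212 made up 1 of 205 reads on the pair, a share of 0.488% (exact 95% interval 0.0123 to 2.69%), and bta-miR-132 the other 204. A count of 0 allows a share of non-miR-1246 reads of up to 0.00127% in the library with most such reads (control-EVs replicate 2) and of up to 0.00879% in the library with fewest (HS-EVs replicate 1). For control-EVs replicates 1 and 3 and HS-EVs replicate 3, the limits were 0.00392%, 0.00408% and 0.00346%. The steroidogenic factor 1 target bta-miR-383 had 1 read in control-EVs replicate 2 (0.697 normalized counts) and 1 read in HS-EVs replicate 1 (4.11 normalized counts). The difference between those values came from what 1 read was worth in each library. No fold is given for either miRNA, because all their values lay at or under the limit of 3 reads, and a difference between groups was not detectable at this depth.

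The 6 were read against all miRNAs. At the study's threshold (adjusted p up to 0.3 with a log2 fold change of at least 1 in either direction) limma called 0 of 512 miRNAs (0%) and none of the 6. At an unadjusted p of 0.05 or less it found 25 of 512 (4.88%) and 0 of the 6. The groups did not overlap in 33 of 512 (6.45%) and in 0 of the 6. On the recovered reads, edgeR's quasi-likelihood test called 3 of 512 and DESeq2 called 0, and neither called any of the 6. The median log2 fold change was -0.14 over the 4 detected, of which 1 was above and 3 below 0, beside 0.02 over all 204 detected miRNAs with 105 above and 99 below 0. In absolute size the log2 fold changes had a median of 0.28 over the 4 and 0.34 over the 204. Of those 204, 62 lay at least as far from 0 as bta-miR-31 and 189 at least as far as bta-miR-132.

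**Figure D4:**
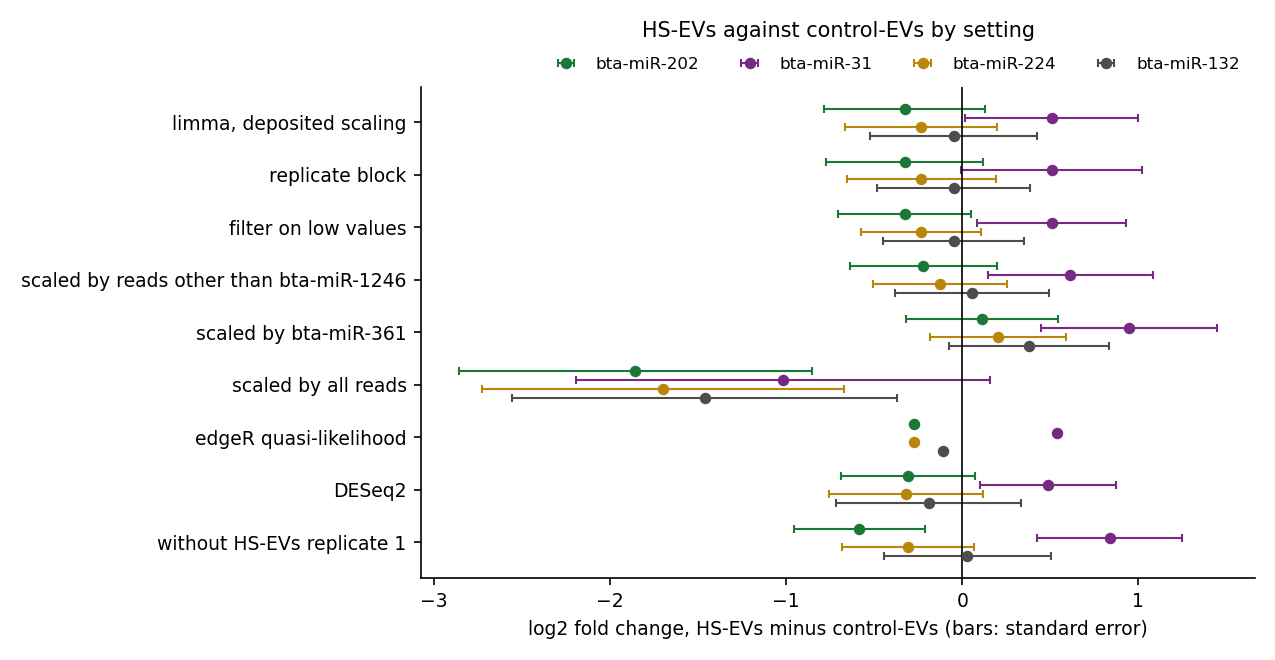
Log2 fold change of the 4 detected miRNAs, HS-EVs minus control-EVs, under 9 settings of scaling, filter, test and libraries, with standard errors as bars (edgeR gives none). Values of miR-202, miR-224 and miR-132 lie around or just below 0 and that of miR-31 above 0 in most settings, except scaling by all reads, where all 4 lie below 0 with the widest bars, and scaling by bta-miR-361, where all 4 lie above 0.

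The direction of these values depended on the scaling. Scaling by all reads, most of which were bta-miR-1246, moved the median log2 fold change of all 512 miRNAs to -0.75, bta-miR-202 to -1.86, bta-miR-224 to -1.70, bta-miR-132 to -1.46 and bta-miR-31 to -1.02. Scaling by bta-miR-361, used by the study as a reference miRNA, moved that median to 0.29, bta-miR-202 to 0.11, bta-miR-224 to 0.20, bta-miR-132 to 0.38 and bta-miR-31 to 0.95. The reference itself had 652, 984 and 662 normalized counts in control-EVs and 481, 716 and 492 in HS-EVs (log2 fold change -0.44, limma adjusted p = 0.873). None of the 4 passed the threshold under any of these scalings.

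Among the 204 detected miRNAs, the closest in pattern were found by the mean absolute difference of log2 values over the 6 libraries, each centred on its own mean. The nearest to bta-miR-202 was bta-miR-92b (0.122), followed by bta-miR-424-5p (0.143) and bta-miR-369-3p (0.147), where the median over 203 miRNAs was 0.508. The nearest to bta-miR-31 were bta-miR-125a (0.142), bta-miR-210 (0.144) and bta-miR-191 (0.150), with a median of 0.546. Nearest to bta-miR-224 were bta-let-7b (0.109), bta-let-7e (0.127) and bta-miR-151-3p (0.146), with a median of 0.436. For bta-miR-132 they were bta-miR-27a-3p (0.102), bta-miR-2284aa (0.154) and bta-miR-23a (0.181), with a median of 0.518. With 6 libraries and 203 candidates these distances are descriptions.

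A further list held 14 other miRNAs linked to gonadotropin, growth factor or steroid signalling in granulosa cells, of which 12 were detected. None was called, 8 had log2 fold changes above 0 and 6 below, and the median was 0.06. The most abundant were bta-miR-21-5p, an anti-apoptotic miRNA of luteinizing granulosa cells, at 10154 ± 4040 normalized counts in control-EVs and 11099 ± 4160 in HS-EVs, bta-miR-92a at 5871 ± 1077 and 4584 ± 1258, and bta-miR-320a at 4209 ± 2208 and 4056 ± 1150 (SD, n = 3 each). Their log2 fold changes were 0.12, -0.38 and 0.05. The groups did not overlap in 1 of the 14, which is near the 6.45% over all miRNAs. This was bta-miR-181a, which targets the activin receptor, with 6, 15 and 1 reads in control-EVs and 5, 19 and 17 in HS-EVs. Its normalized counts were 7.82 ± 5.07 and 23.1 ± 4.04 (SD, n = 3 each), a log2 fold change of 1.68 (SE 0.60, limma unadjusted p = 0.018, adjusted p = 0.785) that did not pass the threshold. It was the 1 of the 14 at an unadjusted limma p of 0.05 or less, beside 4.88% of all 512 miRNAs. The paper describes bta-miR-181a as tending to be higher in HS-EVs. Neither bta-miR-133b nor bta-miR-375 was detected. By abundance, bta-miR-202 and bta-miR-31 stood below bta-miR-320a, and bta-miR-224 stood beside bta-miR-424-5p, a list member at 80.0 normalized counts over the 6 libraries against 77.1.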

How the data were processed

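Libraries were made with the QIAseq miRNA kit, whose adapters carry unique molecular identifiers. Per the labels and methods, the authors trimmed reads (Cutadapt 1.11), mapped them (Bowtie2 2.2.2, build UMD3.1, miRBase) and normalized counts by TMM in edgeR. They deposited normalized counts, taken here as a signal. Within each library 100% of values were whole multiples of the smallest positive value (tolerance 0.001 read), which was taken as 1 read. If that value stood for more, depths would be too low by that factor. The recovered totals exceeded the miRNA-mapped reads that the study's supplement lists for every library, and counting intervals and limits rest on the recovered reads. Reads were counted per library over 512 miRNAs. No 2 libraries agreed within sampling noise (15 pairs).

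Tests used limma 3.58.1 (R 4.3.3, eBayes defaults, no filter) on log2(normalized count + 1) over all 512 miRNAs with Benjamini-Hochberg adjustment, and exact two-sided permutation of libraries. Alternatives were other pseudocounts, a filter, scalings, limma's trend, edgeR 4.0.16 and DESeq2 1.42.0 on the recovered reads, a replicate block and leaving out each library. Scripts were tested on simulated data. P-values rest on the spread between these libraries, which may be partly technical. In limma, eBayes also draws the variance of each miRNA toward that of all 512. The SE of bta-miR-224 was 0.43, and 0.34 with the filter on low values.

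The members and lists were chosen with earlier results of these data known. The miRNAs named were the 6 members, the nearest miRNA gene of each where no other gene than a shared host lay between them, the 3 nearest in pattern, and, from the list of 14, the 3 most abundant and those called or not overlapping. Members of that list named beyond this were chosen after their values were seen. Named as well were bta-miR-1246 and bta-miR-361 as scaling references. From the markers, bta-miR-122 was named as the most abundant, bta-miR-144 as the least abundant and bta-miR-150 as not overlapping, by their values. The plan for which miRNAs to name also held those of the same hairpin or seed as a member. They were not analysed here because mature sequences were not used. All 6 matched the RefSeq genes of ARS-UCD2.0, a different build from the authors', so that no positions are given. The miR-202 to miR-31 ratio and the other ratios within libraries, and the ranges between libraries, were added after the values were seen.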

Additional observations from a re-analysis of the deposited data

How the results depend on the processing

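No member passed the threshold under any of 16 alternatives, and the number detected was 4 of 6 in both groups under all 5 other detection rules. Over all 512 miRNAs, limma called 0, whereas a pseudocount of 0.5 gave 1, edgeR's quasi-likelihood test 3 and limma's trend 2. Leaving out 1 library gave 0 to 4 calls, with 4 without control-EVs replicate 2, 2 without HS-EVs replicate 1 and 3 without HS-EVs replicate 2. The cause was not tested. Deviations from the group means had correlations of 0.141, 0.141 and 0.0787 between control-EVs and HS-EVs libraries of the same replicate number. Libraries of different numbers were not compared, so whether the numbers pair the libraries was not settled. With a replicate block limma called 0 of 512 (smallest adjusted p = 0.505) and changed no call of a member. The log2 fold change of bta-miR-31 reversed to -1.02 when scaled by all reads. Scaled by bta-miR-361, bta-miR-202 was 0.11, bta-miR-224 was 0.20 and bta-miR-132 was 0.38, and bta-miR-132 was 0.0546 when scaled by reads other than bta-miR-1246. Leaving out 1 library gave -0.34 to 0.28 for bta-miR-132 (0.28 without control-EVs replicate 3, 0.03 without HS-EVs replicate 1), -0.58 to -0.07 for bta-miR-202, -0.36 to -0.07 for bta-miR-224 and 0.28 to 0.84 for bta-miR-31. Adjusted p-values of the 4 detected members lay between 0.673 and 1 over these alternatives. The counting SD was above the spread between libraries for bta-miR-224 and bta-miR-132 in HS-EVs, but below it for both in control-EVs. Depth leaves bta-miR-212 and bta-miR-383 at or under the limit of 3 reads.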
